A study of Homo sapiens with 8 samples.

Results

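The genes described here encode the parts that build and run the primary cilium. They are the subunits of the 2 intraflagellar transport (IFT) complexes, the motors that carry those complexes, the BBSome and its helpers, and the transition zone at the base of the cilium. They were taken as the rows of the count table whose symbol is on a list of 50 gene names. All 50 names were found among the 60606 genes of the table. Counts were present for 45 of them, all 45 passed the filter on low counts, and 5 were listed at 0 in every library. The rule reads symbols only, but the list was proposed with results of the same contrast known. Its counts and medians are therefore a description of these libraries and no independent evidence.

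The cells were HEK293, an established human line of embryonic kidney origin, in medium with fetal bovine serum. One group received a mimic of tRNA-Asp-GTC-3'tDR, a fragment from the 3' side of a transfer RNA, and the other received scramble control mimics. Both groups had 4 libraries of total RNA, the same lipid reagent (Lipofectamine RNAiMax), the same dose of 50 nM and the same collection time of 48 hours. No untransfected cells are among the samples, and the labels leave it unsaid whether each library is a culture of its own. P-values here therefore cover only the library-to-library spread, which may be technical.

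The primary cilium is a single antenna-like projection anchored on a centriole, and in kidney epithelium it senses flow and chemical signals. Material moves along it on IFT trains made of the complexes IFT-A and IFT-B. Kinesin-2 moves the trains outward, and cytoplasmic dynein 2 moves them inward. The BBSome carries membrane proteins out of the cilium, and the transition zone gates what enters. Defects in these genes cause ciliopathies, in which cystic kidneys are common.

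Total counts lay between 5848305 and 10557740 per library. All 9 markers fixed for HEK293 cells were detected, with NEFM at 230 ± 17.4 and CDH2 at 247 ± 13.7 CPM (counts scaled to a common library size) in controls (SD, n = 4), and the list summed to 852 to 913 CPM in controls and 744 to 810 CPM with the tDR. Of 14 markers of cells with motile cilia, FOXJ1, the master regulator of motile cilia, had 3 counts in all libraries together, and the summed list lay between 122 and 136 CPM in controls and between 124 and 147 CPM with the tDR. Of the 10 tested genes in that list 6 rose and 0 fell, beside 12.8% and 11.4% of all tested genes. Between 41.4% and 86.1% of the counts of those 6 genes were estimated background. HYDIN, with the 86.1%, still passed under all 16 alternative analyses, subtraction of this background among them. The call was lost under 2 alternatives for DNAH5 and for SPAG6, 7 for DNAI1, 8 for DNAH9 and 9 for DNAI2. The part of background in these rises was not tested. That background is the count density over 381 olfactory receptor genes, which lay between 14.1 and 18.5 CPM per Mb of gene span in controls and between 23.2 and 25.6 in the tDR libraries. In the tested motile cilium markers that did not pass it was 9.7% of counts for DNAH11, 4.3% for RSPH4A, 19.3% for CCDC40 and 1.8% for MCIDAS. Over the 45 ciliary genes it amounted to a median of 3.26% of counts and at most 14.2%, in TCTN1. Results with it subtracted are given where a call changes. Short lists for other cells were near this background: their sums lay at 3.17 to 5.14 CPM in controls and 3.22 to 5.56 CPM with the tDR for blood cells, 10.4 to 13.2 and 16.1 to 19.7 for endothelium, 2.22 to 2.45 and 3.39 to 5.57 for hepatocytes, and 2.55 to 3.83 and 4.57 to 8.28 for mature kidney tubule.

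In the cells given the tDR, 15 of the 45 tested ciliary genes fell and none rose. The 15 were IFT81, IFT74, IFT57, IFT172, IFT27, IFT46 and IFT52 of IFT-B, WDR35 and IFT43 of IFT-A, the dynein heavy chain gene DYNC2H1, and CEP290, AHI1, RPGRIP1L, B9D1 and CC2D2A of the transition zone. Their levels were between 9.03% and 22.8% lower. The other 30 did not pass the test, and 22 of those had a negative and 8 a positive log2 fold change. A gene passed at a Benjamini-Hochberg adjusted p under 0.05 in edgeR's quasi-likelihood test, fitted and adjusted over all 17184 genes tested. In that fit 11.4% of all genes fell and 12.8% rose. The median log2 fold change was -0.15 over the 45 ciliary genes and 0.02 over all tested genes. At an unadjusted p under 0.05 the test had 1 higher ciliary gene, TCTN2, and DESeq2 had 0 at its adjusted threshold.

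**Figure D1:**
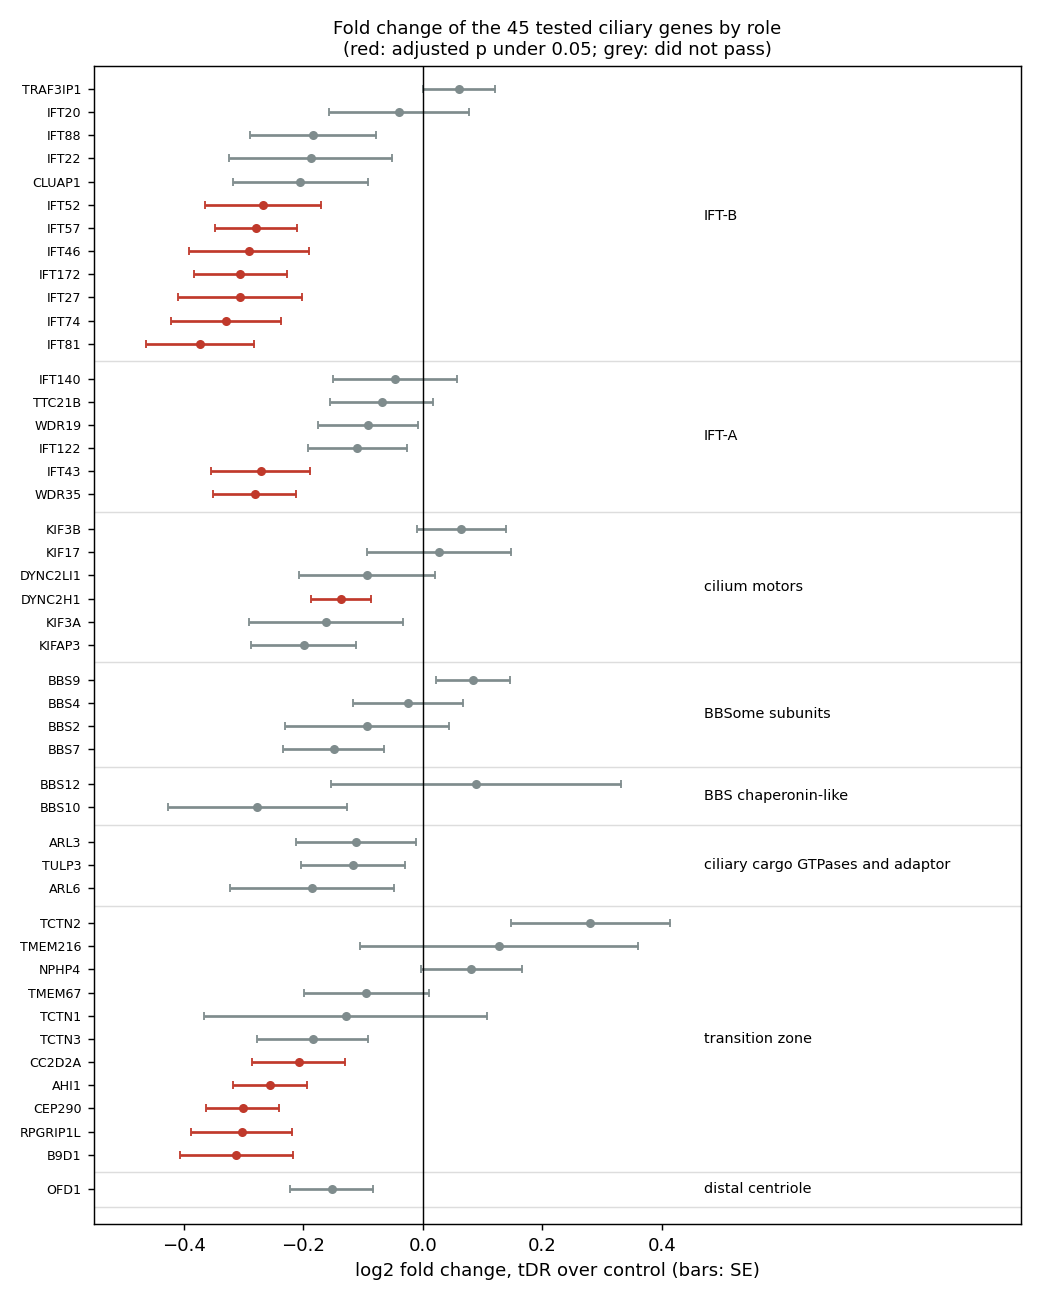
Log2 fold change of tDR over control for the 45 tested ciliary genes, grouped by role, with bars for the SE; red points passed at an adjusted p under 0.05 and grey points did not. All 15 red points lie left of 0, between -0.37 for IFT81 and -0.14 for DYNC2H1, and no BBSome subunit is among them.

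Scaling decides part of this count. CPM here use library sizes scaled by TMM, a method that centres the bulk of genes. With library size alone 8 ciliary genes fell and 2 rose, BBS9 (log2 fold change 0.17) and TCTN2 (0.36), against 15 and 0, while over all genes 907 fell and 3295 rose against 1962 and 2206. With the estimated background subtracted, 9 fell and 0 rose. With a fitted offset for exon length and GC 13 fell and 1, TCTN2 (0.35), rose. The median log2 fold change of the ciliary genes was -0.07 with library size alone and -0.11 with this offset. Over all genes it was 0.10 and 0.01. IFT81, IFT74, IFT57, IFT172, WDR35, CEP290, AHI1 and RPGRIP1L passed, in the same direction, under all 16 alternatives run.

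More strongly expressed genes fell more often in these libraries, so the ciliary genes are also given by level. Among tested genes with a mean of 20 to 50 CPM over the 8 libraries 10.2% fell, and 7 of the 23 ciliary genes at that level did. Between 50 and 100 CPM 19.1% of all genes and 6 of 9 ciliary genes fell. Between 100 and 330 CPM the values were 34.0% and 2 of 3. Between 4 and 20 CPM 2.52% of all genes and 0 of 10 ciliary genes fell. The median log2 fold changes of all and of ciliary genes were 0.13 and -0.11 at 4 to 20 CPM. At 20 to 50 CPM they were -0.03 and -0.15, and at 50 to 100 CPM -0.065 and -0.26. At 100 to 330 CPM they were -0.09 and -0.14. The 10 at the lowest level had the widest errors, up to an SE of 0.24 on the log2 scale for BBS12.

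**Figure D2:**
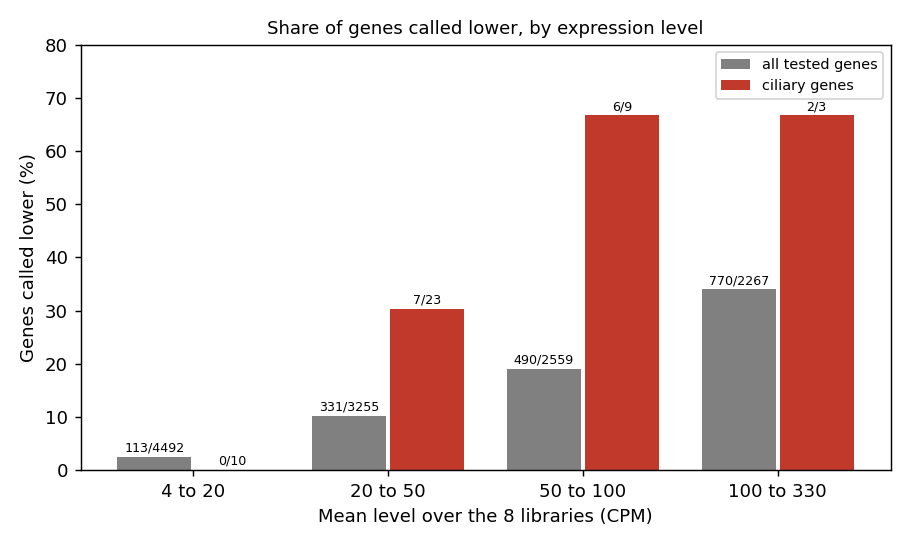
Percent of genes called lower (y axis, from 0) in 4 bands of mean CPM over the 8 libraries (x axis), for all tested genes in grey and for the ciliary genes in red, with the numbers above the bars. The grey bars climb from 2.52% to 34.0% with level, and the red bars from 0 of 10 genes to 6 of 9 and 2 of 3; no test was made of the difference.

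Many ciliary genes are targets of the RFX transcription factors, which bind a motif called the X-box. The promoter windows of RefSeq (GRCh38.p14), each of 300 bases from 250 before to 50 after a start site, held 53 windows for 45 of the 50 genes. IFT22, WDR35, BBS9, TMEM67 and TCTN2 had no entry. The full X-box was searched on both strands as GTTNCC and GGNAAC with 1, 2 or 3 bases between them, where N is any base. It was present in 4 of the 53 windows (7.55%) and in 0.718% of all 35116 windows. The short form GTTGCC, which the full forms can contain, was in 23 of the 53 windows (43.4%) and in 12.2% of all windows. A match of letters is a description and no evidence of binding.

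The 4 full matches are shown because they are the only ones among the ciliary genes, 5′ to 3′ on the gene's strand with the X-box letters in capitals. They lay at chr12:110614122-110614148 (plus strand) for TCTN1, chr10:95694123-95694149 (minus) for TCTN3, chr3:97764727-97764754 (plus) for ARL6 and chr3:129440205-129440233 (plus) for IFT122.
TCTN1: tgtcgcgGTTGCCGGGCAACgcgctgt
TCTN3: actgacgGTTGCCAGGCAACggaggca
ARL6: agctcctGTTGCCAAGGGAACggtgcct
IFT122: catgtacGTTGCCAGGGGTAACgcaggta
None of these 4 genes passed the test. Their log2 fold changes were -0.13 for TCTN1, -0.18 for TCTN3, -0.19 for ARL6 and -0.11 for IFT122.

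The short form was present for 5 of the 14 genes that fell and have a window, and for 11 of the 26 tested genes that did not pass and have one. It is shown for those 5 in 1 window each, with the letters in capitals, GGCAAC being the same letters read on the other strand. The positions were chr12:110124350-110124369 (plus) for IFT81, chr9:26956377-26956396 (plus) for IFT74, chr11:118566115-118566134 (minus) for IFT46, chr22:36776148-36776167 (minus) for IFT27 and chr11:103109368-103109387 (plus) for DYNC2H1.
IFT81: agcaaccGTTGCCaaggagc
IFT74: cgcccccGTTGCCgggatac
IFT46: cagccgcGTTGCCacccata
IFT27: ttttggcGGCAACcaatcga
DYNC2H1: ccgagagGGCAACgcccacc
The letters thus occur both in genes that fell and in genes that did not pass.

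Of the 12 tested IFT-B subunit genes 7 were lower, beside 11.4% of all tested genes. The 12 had a median log2 fold change of -0.27, with 11 values negative, beside 47.6% of all tested genes. Their summed level was 524, 525, 512 and 527 CPM in control replicates 1, 2, 3 and 4 and 471, 459, 443 and 453 CPM in the tDR replicates. The highest tDR library was below the lowest control library. The core of the complex, which is stable by itself, held 5 of the 7, among 7 tested core genes.

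IFT81 and IFT74 encode the paired core subunits that bind tubulin as cargo. IFT81 (chromosome 12, 110124335 to 110218797, GRCh38) stood at 41.6, 44.4, 43.2 and 41.5 CPM in the controls and at 32.5, 37.3, 30.2 and 31.9 CPM with the tDR. Its log2 fold change was -0.37 ± 0.091 (SE; edgeR, adjusted p = 0.00163), the most negative of the 45. IFT74 (chromosome 9, 26947039 to 27062930) stood at 49.8, 40.7, 40.8 and 41.9 CPM in controls and at 35.4, 36.8, 30.3 and 35.8 CPM with the tDR (log2 fold change -0.33 ± 0.092, SE; edgeR, adjusted p = 0.00601). For both partners every tDR library was below every control library, as in 10.8% of all tested genes.

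IFT57 and IFT172 belong to the peripheral part of IFT-B. IFT57 stood at 82.0, 73.0, 77.4 and 78.7 CPM in controls and at 66.0, 65.5, 63.0 and 62.4 CPM with the tDR (log2 fold change -0.28 ± 0.069, SE; edgeR, adjusted p = 0.00172). IFT172, the largest IFT-B subunit, stood at 56.0, 60.4, 56.3 and 56.1 CPM in controls and at 43.3, 49.0, 47.3 and 45.3 CPM with the tDR (-0.31 ± 0.078, SE; edgeR, adjusted p = 0.00274). Every tDR library was again below every control library for both genes, as in 10.8% of all tested genes.

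Of the other core genes, IFT27 encodes a small GTPase that links IFT-B to the BBSome, IFT46 a subunit known for carrying dynein arms in motile cilia, and IFT52 a scaffold of the core. IFT27 stood at 29.1, 30.6, 30.4 and 35.9 CPM in controls and at 28.1, 24.8, 23.7 and 25.8 CPM with the tDR (log2 fold change -0.31). IFT46 stood at 32.0, 31.7, 36.7 and 34.8 CPM against 27.3, 24.7, 31.0 and 27.3 CPM (-0.29). IFT52 stood at 38.6, 31.2, 36.2 and 39.1 CPM against 32.5, 28.8, 31.0 and 28.9 CPM (-0.27), and its groups overlapped.

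These 3 calls depend on which libraries enter. That of IFT27 ended without control replicate 4 (-0.24), or without tDR replicate 2, 3 or 4 (-0.30, -0.28 and -0.31). That of IFT46 ended without control replicate 3 or 4 (-0.27 and -0.29), or of tDR replicate 2 (-0.25) or 4 (-0.29). The call of IFT52 ended without control replicate 1 or 4 (-0.24 and -0.24), or tDR replicate 2, 3 or 4 (-0.25, -0.29 and -0.24). With library size alone they were at -0.22, -0.21 and -0.18, and with background subtracted at -0.26, -0.25 and -0.24, and none passed. Each stayed negative throughout.

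The remaining 5 tested IFT-B genes did not pass. They were CLUAP1 (log2 fold change -0.20 ± 0.113, SE), IFT22 (-0.19 ± 0.136), IFT88 (-0.18 ± 0.106), IFT20 (-0.04 ± 0.117), the subunit also found at the Golgi, and TRAF3IP1 (0.06 ± 0.061). TRAF3IP1, a peripheral subunit that binds microtubules, was at 104, 112, 103 and 99.2 CPM in controls and 117, 111, 101 and 107 CPM with the tDR. It had the only positive value of the complex.

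**Figure D3:**
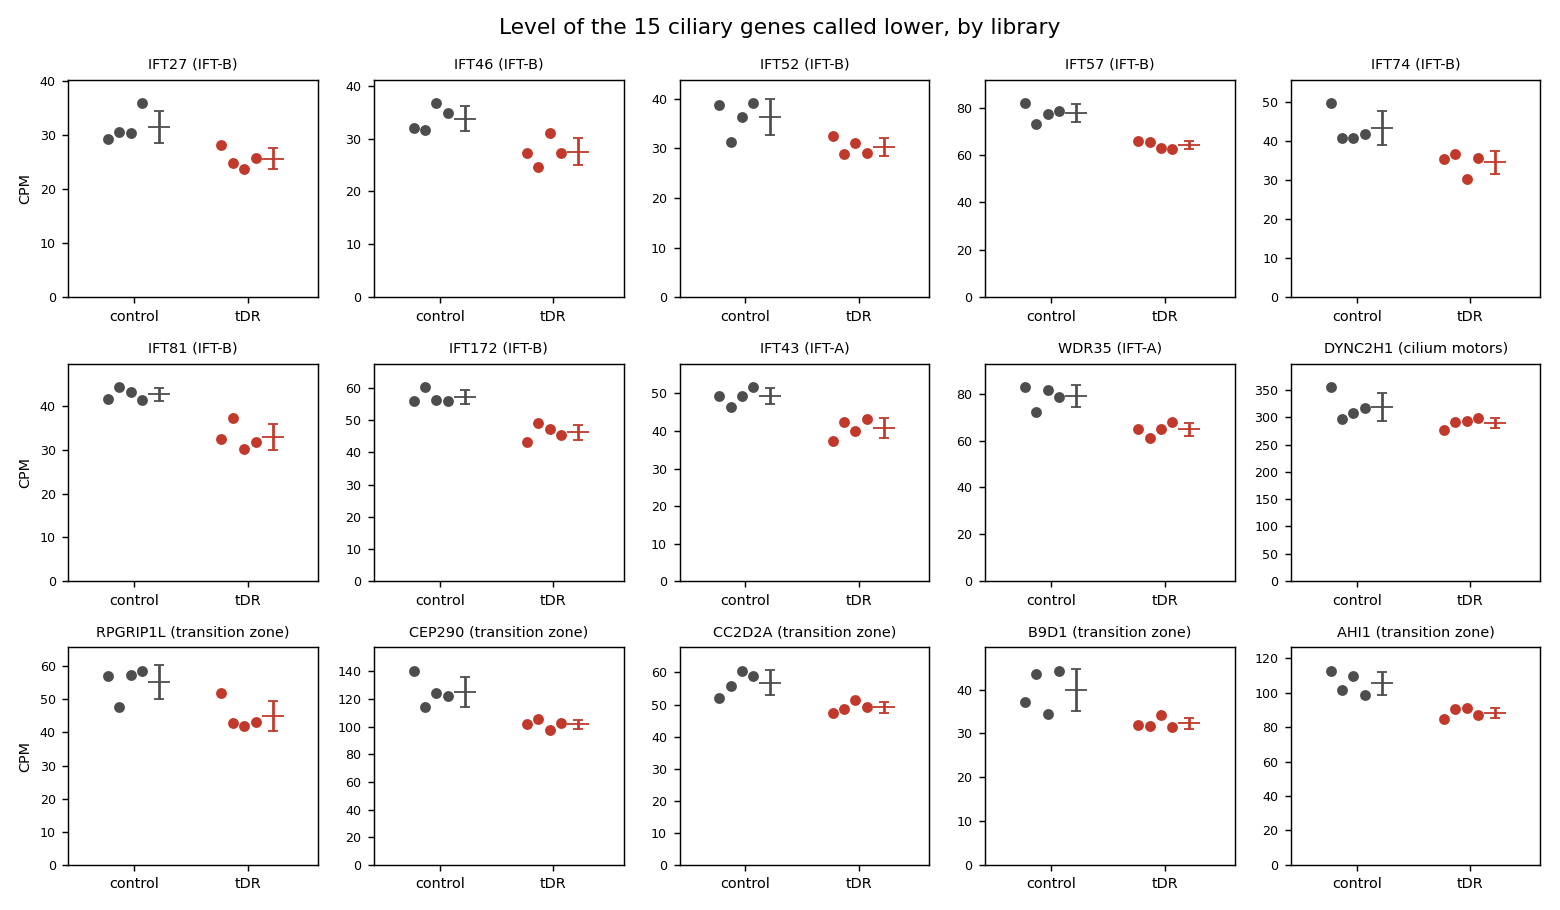
CPM (y axes, from 0) of each of the 15 ciliary genes called lower, with 1 point for each of 4 control libraries (grey) and 4 tDR libraries (red), and the mean with SD beside them. The groups are apart in 12 panels, with all tDR points lower, as in 10.8% of all tested genes. They overlap for IFT52, DYNC2H1 and RPGRIP1L.

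IFT-A had 2 of its 6 genes lower, beside 11.4% of all tested genes. All 6 values were negative, beside 47.6% of all tested genes, and the median log2 fold change was -0.10. At the levels of the 2 lower genes, WDR35 and IFT43, 19.1% and 10.2% of all genes fell. WDR35 and IFT43 encode peripheral subunits, and both are mutated in cranioectodermal dysplasia, a skeletal ciliopathy. WDR35 (chromosome 2, 19910260 to 19990131) stood at 83.0, 72.4, 81.8 and 78.8 CPM in controls and at 65.0, 61.2, 65.2 and 68.2 CPM with the tDR (log2 fold change -0.28 ± 0.069, SE; edgeR, adjusted p = 0.00174). IFT43 stood at 49.4, 46.5, 49.4 and 51.8 CPM against 37.2, 42.5, 39.9 and 43.2 CPM (-0.27 ± 0.084, SE; edgeR, adjusted p = 0.0128). Neither gene's groups overlapped, and 10.8% of all tested genes likewise had every tDR library below every control library. IFT43 lost its call under 1 alternative, library size alone (-0.19).

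The other 4 IFT-A genes were closer to 0 and their groups overlapped. IFT122 was at -0.11 ± 0.082, WDR19 at -0.09 ± 0.084, TTC21B at -0.07 ± 0.086 and IFT140 at -0.05 ± 0.103 (log2 fold change ± SE). The complex as a whole summed to 313, 296, 304 and 307 CPM in controls and to 267, 269, 271 and 281 CPM with the tDR. The groups of sums did not overlap.

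Among the motors 1 of 6 genes fell, DYNC2H1, the heavy chain of the dynein that drives the inward train. The kinesin-2 genes did not pass. Over all tested genes 11.4% fell, and at the level of DYNC2H1, 100 to 330 CPM, 34.0% did. DYNC2H1 (chromosome 11, 103109410 to 103479863) was the most counted ciliary gene, at 356, 297, 308 and 317 CPM in controls and 277, 292, 293 and 299 CPM with the tDR. Its log2 fold change was -0.14 ± 0.050 (SE; edgeR, adjusted p = 0.0375), and the tDR replicate 4 library was above the control replicate 2 library. The call leans on control replicate 1, the highest library: without it the value was -0.08. It also ended without tDR replicate 1, 2 or 3 (-0.12, -0.15 and -0.15), with library size alone (-0.05), with background subtracted (-0.10), with the offset for length and GC (-0.09) and with the replicate number as a block (-0.13).

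KIF3A, KIF3B and KIFAP3 encode the heterotrimeric kinesin-2 that pulls the outward train. KIFAP3, the non-motor subunit, was at 52.5, 43.8, 62.8 and 47.0 CPM in controls and 47.2, 44.2, 44.6 and 42.8 CPM with the tDR (log2 fold change -0.20 ± 0.088, SE; edgeR, adjusted p = 0.0904). It passed without control replicate 2 (-0.28) or 4 (-0.25), and with no filter on low counts (-0.23). The motor subunits KIF3A and KIF3B were at -0.16 ± 0.129 and 0.06 ± 0.074, the homodimeric KIF17 at 0.03 ± 0.120 and DYNC2LI1, the dynein light intermediate chain, at -0.09 ± 0.114. The kinesin genes thus had values on both sides of 0.

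None of the 4 tested BBSome subunit genes passed, and their median log2 fold change was -0.06. Their summed level was 209, 190, 203 and 206 CPM in controls and 211, 188, 206 and 201 CPM with the tDR, so the groups overlapped over nearly their whole range. BBS9 was at 105, 89.2, 95.0 and 94.7 CPM in controls and 108, 98.1, 101 and 101 CPM with the tDR (0.08 ± 0.062, SE). BBS7 was at 50.2, 48.6, 59.1 and 52.4 CPM against 49.4, 39.6, 50.0 and 49.8 CPM (-0.15 ± 0.084, SE), and BBS2 and BBS4 were at -0.09 ± 0.137 and -0.03 ± 0.091. Whether the BBSome differed in its response from IFT-B was not tested.

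BBS10 and BBS12 encode chaperonin-like proteins that assemble the BBSome. BBS10 was at 14.3, 12.5, 14.0 and 13.8 CPM in controls and 11.0, 10.3, 10.4 and 13.2 CPM with the tDR (log2 fold change -0.28 ± 0.149, SE), as large a change as in several genes that passed but with a wider error. BBS12 was at 4.93, 2.94, 6.20 and 5.40 CPM against 5.93, 4.11, 4.92 and 5.66 CPM (0.09 ± 0.243, SE). Both groups overlapped for each gene.

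The genes for cargo delivery did not pass. ARL6, the GTPase that recruits the BBSome to membranes, was at 19.7, 13.8, 16.7 and 17.7 CPM in controls and 18.1, 14.1, 13.7 and 14.4 CPM with the tDR (log2 fold change -0.19 ± 0.138, SE). TULP3, which couples IFT-A to membrane receptors, was at 46.3, 40.0, 46.2 and 46.5 CPM against 36.6, 44.1, 40.8 and 43.0 CPM (-0.12 ± 0.087). ARL3, the GTPase that releases lipid-modified cargo inside the cilium, was at -0.11 ± 0.100. The groups of all 3 overlapped.

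The transition zone had 5 of its 11 tested genes lower, beside 11.4% of all tested genes. Its median log2 fold change was -0.18. Summed, its genes were at 551, 501, 531 and 520 CPM in controls and 450, 469, 452 and 462 CPM with the tDR, and the groups of sums did not overlap. CEP290, which forms the links between the microtubules and the membrane, carried the smallest p of all 45 genes. It lay at a mean of 100 to 330 CPM, where 34.0% of all genes fell. CEP290 (chromosome 12, 88049014 to 88142216) stood at 140, 114, 124 and 122 CPM in controls and at 102, 105, 97.2 and 102 CPM with the tDR (log2 fold change -0.30 ± 0.061, SE; edgeR, adjusted p = 0.000171).

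AHI1 and RPGRIP1L encode scaffold proteins of the zone, and both are Joubert syndrome genes. AHI1 (chromosome 6, 135283532 to 135497776) stood at 113, 101, 109 and 98.4 CPM in controls and at 84.8, 90.3, 90.8 and 87.0 CPM with the tDR (log2 fold change -0.26 ± 0.062, SE; edgeR, adjusted p = 0.00156). RPGRIP1L stood at 57.0, 47.7, 57.4 and 58.6 CPM against 51.8, 42.9, 42.0 and 43.2 CPM (-0.30 ± 0.084, SE; edgeR, adjusted p = 0.00555). The AHI1 groups were apart, while the RPGRIP1L groups overlapped because tDR replicate 1 was above control replicate 2.

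B9D1 and CC2D2A belong to the module of membrane and lipid-binding proteins named after Meckel syndrome. B9D1 stood at 37.2, 43.5, 34.5 and 44.3 CPM in controls and at 31.8, 31.8, 34.2 and 31.4 CPM with the tDR (log2 fold change -0.31 ± 0.095, SE; edgeR, adjusted p = 0.0114). CC2D2A stood at 51.9, 55.9, 60.5 and 59.0 CPM against 47.2, 48.5, 51.3 and 49.3 CPM (-0.21 ± 0.078, SE; edgeR, adjusted p = 0.0443). Both were apart between groups, with every tDR library below every control library, as in 10.8% of all tested genes.

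The call of B9D1 ended without control replicate 4 (-0.27), with library size alone (-0.23) and with background subtracted (-0.28). The call of CC2D2A ended without control replicate 3 or 4 (-0.20 and -0.20), or tDR replicate 1, 2 or 4 (-0.20, -0.21 and -0.21), with library size alone (-0.12), with background subtracted (-0.19) and with the offset for length and GC (-0.19). CC2D2A was the closest to the threshold of the 15.

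The 6 other tested transition zone genes pointed both ways. The 3 tectonic genes, whose proteins belong to the transition zone complex, had values on both sides of 0: TCTN3 was at -0.18 ± 0.092, TCTN1 at -0.13 ± 0.237 and TCTN2 at 0.28 ± 0.133 (log2 fold change ± SE). TCTN2 stood at 15.7, 16.6, 16.7 and 14.7 CPM in controls and at 17.1, 16.4, 18.3 and 24.5 CPM with the tDR (edgeR, adjusted p = 0.119), with tDR replicate 4 the highest. TCTN3 passed without tDR replicate 2 (-0.29). The membrane protein genes TMEM67 and TMEM216 were at -0.09 ± 0.105 and 0.13 ± 0.232, and NPHP4, a nephronophthisis gene, at 0.08 ± 0.084.

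OFD1, which sets the length of the distal centriole beneath the cilium, was at 89.3, 85.1, 70.6 and 85.8 CPM in controls and 79.4, 72.9, 70.6 and 76.5 CPM with the tDR (log2 fold change -0.15 ± 0.069, SE; edgeR, adjusted p = 0.102). Control replicate 3 and tDR replicate 3 were the lowest libraries, and without the former OFD1 passed at -0.23.

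**Figure D4:**
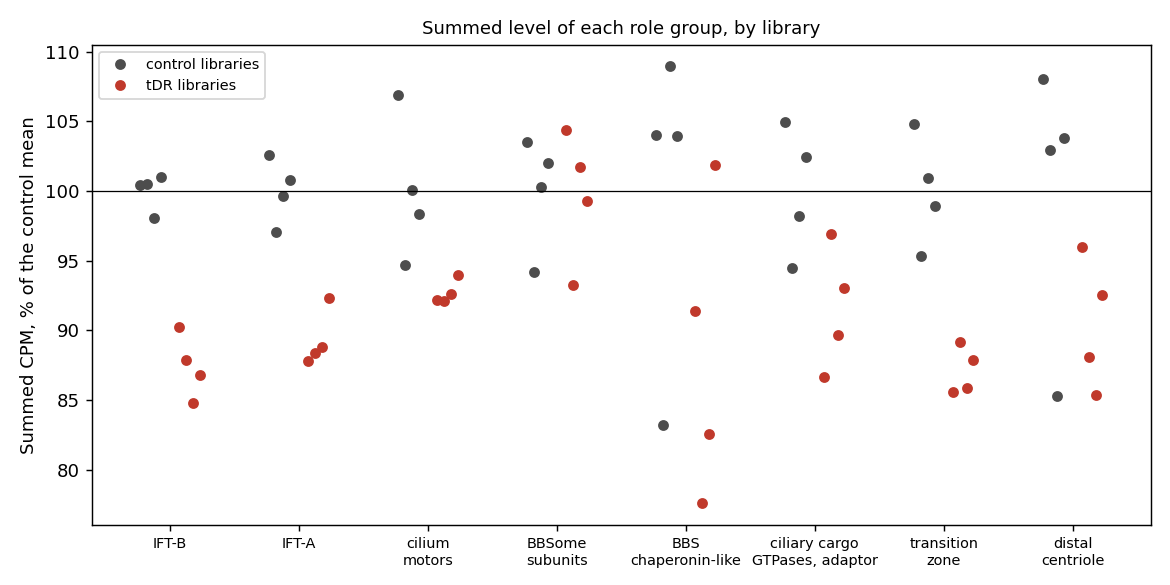
Summed CPM of each role group as a percent of its control mean (y axis, not from 0), with 1 point per library, control in grey and tDR in red; the line marks 100%. The tDR points lie below all control points for IFT-B, IFT-A, the motors and the transition zone, and overlap them for the BBSome, the chaperonin-like genes, the cargo genes and the distal centriole gene. DYNC2H1 alone supplied 319 of the 492 CPM of the motors in controls.

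Summed over all ciliary genes, controls held 2241 ± 67.7 CPM and tDR libraries 2021 ± 19.7 CPM (SD, n = 4), a log2 ratio of -0.15. In 12 of the 45 genes every tDR library was below every control library and in 0 every tDR library was above. Over all tested genes these shares were 10.8% and 11.8%. In a bulk sample, fewer cells making an RNA and less of it per cell cannot be told apart.

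Levels can be compared between genes only per length. Per kb of annotated exon, TRAF3IP1 (22.6 ± 1.19), DYNC2H1 (21.3 ± 1.71) and IFT57 (20.7 ± 0.986) were the highest ciliary genes in controls, in CPM per kb (SD, n = 4), and the ranges of mean ± SD of these 3 overlap. TCTN1 was the lowest, at 0.540 ± 0.0895 CPM per kb. The partners IFT74 and IFT81 stood at 10.6 ± 1.07 and 6.09 ± 0.201, and the kinesin partners KIF3B and KIF3A at 9.89 ± 0.174 and 2.66 ± 0.180 CPM per kb. How intron reads were treated, not given in the sources used here, could change these levels.

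IFT80, BBS1, BBS5, TMEM231 and B9D2 were listed at 0 in all 8 libraries. In GENCODE 29 27.2% of the exon bases of IFT80 are shared with another gene on the same strand, 53.9% of those of BBS1, 21.9% of BBS5, 9.70% of TMEM231 and 0 of B9D2. Among the 45 genes with counts the largest such share was 5.40%, in CLUAP1. DYNLRB1, a dynein light chain gene used by most cells, was also listed at 0. The zeros therefore set no limit on the level of these 5 genes, and the part of shared exons in them was not tested.

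Other ciliary genes were taken from 6 lists that were written with earlier results of these data known. Of 72 found, 8 were listed at 0 and 62 were tested; 17 fell, 2 rose and 43 did not pass, with a median log2 fold change of -0.12. The shares over all tested genes were 11.4% lower and 12.8% higher. Of 6 other genes of IFT and its dynein, 5 fell. These were DYNC2I2 (-0.38) and DYNC2I1 (-0.21), the intermediate chains of the dynein for which DYNC2H1 is the heavy chain, the light chain gene DYNLL1 (-0.22), IFTAP (-0.28), whose protein binds IFT-A, and the IFT-B core gene TTC26 (-0.21). DYNC2I2 went from 37.7 ± 4.56 to 28.8 ± 1.94 CPM (SD, n = 4; edgeR, adjusted p = 0.00302) and passed under all 16 alternatives. Of the other 4, DYNLL1 lost its call under 1 alternative, DYNC2I1 under 2, IFTAP under 6 and TTC26 under 9.

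The BBSome helper list had 2 of 7 lower: RAB8A (-0.46), a GTPase of vesicle delivery to the cilium, and MKKS (-0.25), a chaperonin-like gene like BBS10. Among 12 other transition zone and inversin genes TMEM237 (-0.28), ANKS6 (-0.19) and INVS (-0.15) fell. Among 15 basal body genes CEP83 (-0.23) and SCLT1 (-0.20), which encode appendage proteins that dock the centriole, and PCM1 (-0.22), the scaffold of centriolar satellites, fell. Each of these 3 lists had no gene that rose, beside 11.4% lower and 12.8% higher over all tested genes. INVS, CEP83, SCLT1 and PCM1 lay at a mean of 100 to 330 CPM, where 34.0% of all genes fell. RAB8A and PCM1 passed under all 16 alternatives, while CEP83 and SCLT1 lost their call under 2 each, ANKS6 under 3, INVS under 5, and MKKS and TMEM237 under 7 each.

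Of the 15 tested genes of ciliary membrane and signalling 3 fell and 1 rose, beside 11.4% and 12.8% of all genes, and the median log2 fold change was -0.03. The Hedgehog genes GLI2 (-0.17), a transcription factor, and PTCH1 (-0.20), the receptor and a target of the pathway, fell, as did PDE6D (-0.26), the carrier of lipid-modified ciliary cargo. PKD1, the gene of polycystin-1, which is mutated in polycystic kidney disease, went from 43.8 ± 5.21 to 56.7 ± 1.44 CPM (SD, n = 4) and rose by 0.38 on the log2 scale (edgeR, adjusted p = 0.00045). The call was lost under 1 alternative for PKD1, 3 for GLI2, 5 for PTCH1 and 8 for PDE6D. The other 11 genes, SMO, SUFU and PKD2 among them, did not pass.

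Of the 7 tested RFX factor genes 1 fell and 1 rose, beside 11.4% and 12.8% of all tested genes. RFX3, a regulator of ciliary genes, fell from 84.3 ± 9.46 to 68.5 ± 5.16 CPM (SD, n = 4). Its log2 fold change was -0.30 (edgeR, adjusted p = 0.00164), and the call held under all 16 alternatives. RFX8 rose by 1.26 on the log2 scale, from 1.31 CPM, and 67.1% of its counts were estimated background. RFX1, RFX2, RFX5, RFX6 and RFX7 did not pass. The count of 17 lower genes over the 6 lists became 10 without tDR replicate 4, 7 with background subtracted and 4 with library size alone, where 5 rose.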

How the data were processed

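Per the labels' protocols, RNA was extracted with TRIzol and libraries were made with a stranded low-input kit (SMARTer Pico). The authors deposited raw gene counts, unnormalized, in 1 table. DESeq2 1.30.1, featureCounts 2.0.2, STAR 2.7.8a and cutadapt 2.10 are named per the submitters' processing notes, with roles not given in the sources used here, nor the strand setting, the annotation or the handling of reads that fit several genes. Overlapping genes are therefore uncertain. The members, lists and tests were chosen with earlier results of these data known.

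All 60606 genes entered edgeR 4.0.16 (R 4.3.3): its default filter left 17184, TMM scaled the libraries, and the quasi-likelihood F test used group as the only term. Adjusted p-values are Benjamini-Hochberg over all genes tested. Positions, spans and exons came from GENCODE 29 (GRCh38), which matched 94.0% of genes and 99.5% of counts. Alternatives were DESeq2 1.42.0, library size alone, RLE factors, 2 other filters, a replicate block, each library left out, olfactory receptor background subtracted, and a loess correction for exon length and GC content. The steps were tested on simulated data. Of 50 genes changed 1.3-fold 42% were recovered, of 50 changed 2-fold 84%, and 4.83% of calls were false. Far fewer genes were changed there than the 1962 that fell and 2206 that rose in the data, so recovery in the data may differ. Changes under 1.3-fold, which include those of all the ciliary genes that fell, were not simulated. A gene that did not pass may therefore still have changed. Chi-square statistics between libraries of a group were 2.15 to 4.88 per degree of freedom, above counting noise. Per-library values are printed for genes that passed, and in role groups without one for the 2 genes with the smallest p. Of the other lists at most 4 genes per direction are named, by smallest p, plus TTC26; others printed in full (TRAF3IP1, KIFAP3, TCTN2), the level bands and the printed short X-box letters were chosen after their values were seen.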

Additional observations from a re-analysis of the deposited data

Results flagged for a closer look

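In 10 of 90 sets of 4 libraries (45 genes, 2 groups each) 1 library lay far from the other 3, with a gap, relative to the whole range, above Dixon's critical value; chance gives about 1 such set in 20. Of genes that fell, IFT74 was highest in control replicate 1 at 49.8 CPM (next 41.9), IFT172 in control replicate 2 at 60.4 CPM (next 56.3) and B9D1 in tDR replicate 3 at 34.2 CPM (next 31.8). RPGRIP1L was low in control replicate 2 at 47.7 CPM (next 57.0) and high in tDR replicate 1 at 51.8 CPM (next 43.2), which are the 2 libraries that make its groups overlap. Of genes that did not pass, IFT88 was low in control replicate 3 at 24.8 CPM, DYNC2LI1 in control replicate 1 at 19.8 CPM, TULP3 in control replicate 2 at 40.0 CPM and BBS7 in tDR replicate 2 at 39.6 CPM, while ARL6 was high in tDR replicate 1 at 18.1 CPM. The 10 sets are spread over 6 of the 8 libraries.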

How the results depend on the processing

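Over 16 alternatives no ciliary gene that passed changed sign. The 15 lower ciliary genes became 8 with library size alone and 9 with background subtracted, and 11 to 16 with 1 library left out. The count of higher ones went from 0 to 2 with library size alone and to 1 with the length and GC offset. Over all genes, 1962 lower became 907 with library size alone and 1095 with background subtracted, where 2206 higher became 1116. The other ciliary genes, 17 lower and 2 higher, became 4 and 5 with library size alone; 7 were lower with background subtracted and 1 higher with the length and GC offset. Leaving out 1 library gave 10 to 16 lower and 1 to 3 higher. With library size alone the log2 ratios of summed levels were -0.11 for IFT-B, -0.0803 for IFT-A, -0.0263 for the motors, 0.0775 for the BBSome, -0.0443 for the cargo genes and -0.12 for the transition zone, against -0.19, -0.16, -0.11, -0.01, -0.13 and -0.20. The cause was not tested.

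With the replicate number as a block 14 ciliary genes were lower, DYNC2H1 (-0.13) being the call lost. Deviations of same-numbered libraries correlated between -0.03 and 0.07, the highest being replicate 2. Of 4 control libraries 1, and of 4 tDR libraries 2, correlated best with their own number. The numbers thus show no clear pairing, but values this small from 4 libraries per group cannot exclude one. Below a mean of 20 CPM errors reached an SE of 0.24 (BBS12).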
